A study of Nicotiana tabacum with 6 samples.

Results

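The genes described are the hexose kinases and hexose transporters that the tomato array names: the fructokinase genes FRK1, FRK2, FRK3 and FRK4, the hexokinase genes hxk1 and Hxk2, and the hexose transporter genes HT1, HT2 and HT3. They were taken by gene symbol from the annotation of the array platform. Each of the 9 genes had 1 probe set, so the members are 9 of the 10101 probe sets tested. The samples were leaves of Nicotiana tabacum, tobacco, of a cultivar that the labels write Petit Havanna. The groups were plants lacking psbA, a plastid gene that encodes D1 of the photosystem II core, plants lacking psaA, a plastid gene whose product forms part of the photosystem I core, and normal plants, called wild type here, with 2 arrays each. Per the labels' protocols, plants grew in culture bottles under dim light on a medium with 500 mg/L spectinomycin and 16 h of light, and the harvest came 2 to 3 weeks after subculture of the plants. This text is given for wild type too, and whether wild type was in fact kept on the drug is unclear. If it was not, drug and genotype cannot be told apart. The labels name the arrays of a group biological replicates without saying whether plants or lines were separate, so p-values measure only the spread between these arrays.

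Hexoses reach a plant cell through proton-coupled transporters of the plasma membrane or are released inside it from sucrose and starch. They enter metabolism only after phosphorylation: fructokinases act on fructose, while hexokinases act on glucose as well as fructose. In Arabidopsis a hexokinase also serves as a glucose sensor that lowers the expression of photosynthesis genes. In leaves the hexose kinases stand between free hexoses and their use in glycolysis. Roles named below are those known for tomato genes, not for tobacco copies.

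None of the 9 probe sets passed the test in the 3 comparisons of genotypes on the values as deposited, and FRK2, FRK3, hxk1 and HT1 came nearest, with differences of at most 1.32-fold. With limma's moderated test and Benjamini-Hochberg adjustment over all 10101 probe sets, 0 of 9 were called at an adjusted p under 0.05 for the psaA deletion against wild type, where 10.7% of all probe sets were called. For the psbA deletion against wild type the count was 0 of 9, beside 11.2% of all probe sets, and for the psbA against the psaA deletion 0 of 9, beside 3.98%. One test over all 3 genotypes (moderated F) also called 0 of 9, against 13.8% of all probe sets. At an unadjusted p under 0.05 the counts were 4 of 9, 2 of 9 and 1 of 9, beside 23.8%, 24.5% and 17.8% of all probe sets. The range over the 6 arrays had a median of 0.40 on the log2 scale among the 9, beside 0.45 over all tested probe sets.

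Values are deposited log2 values that had been centred on each probe set's median over the 6 arrays. They show how the arrays differ in 1 gene, but not how strongly a gene is expressed, and levels of different genes cannot be compared. For the same reason the leaf label could not be checked by whether its marker genes were expressed. Because tobacco RNA was hybridised to probes made for tomato, related tobacco transcripts may also share a probe set.

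**Figure D1:**
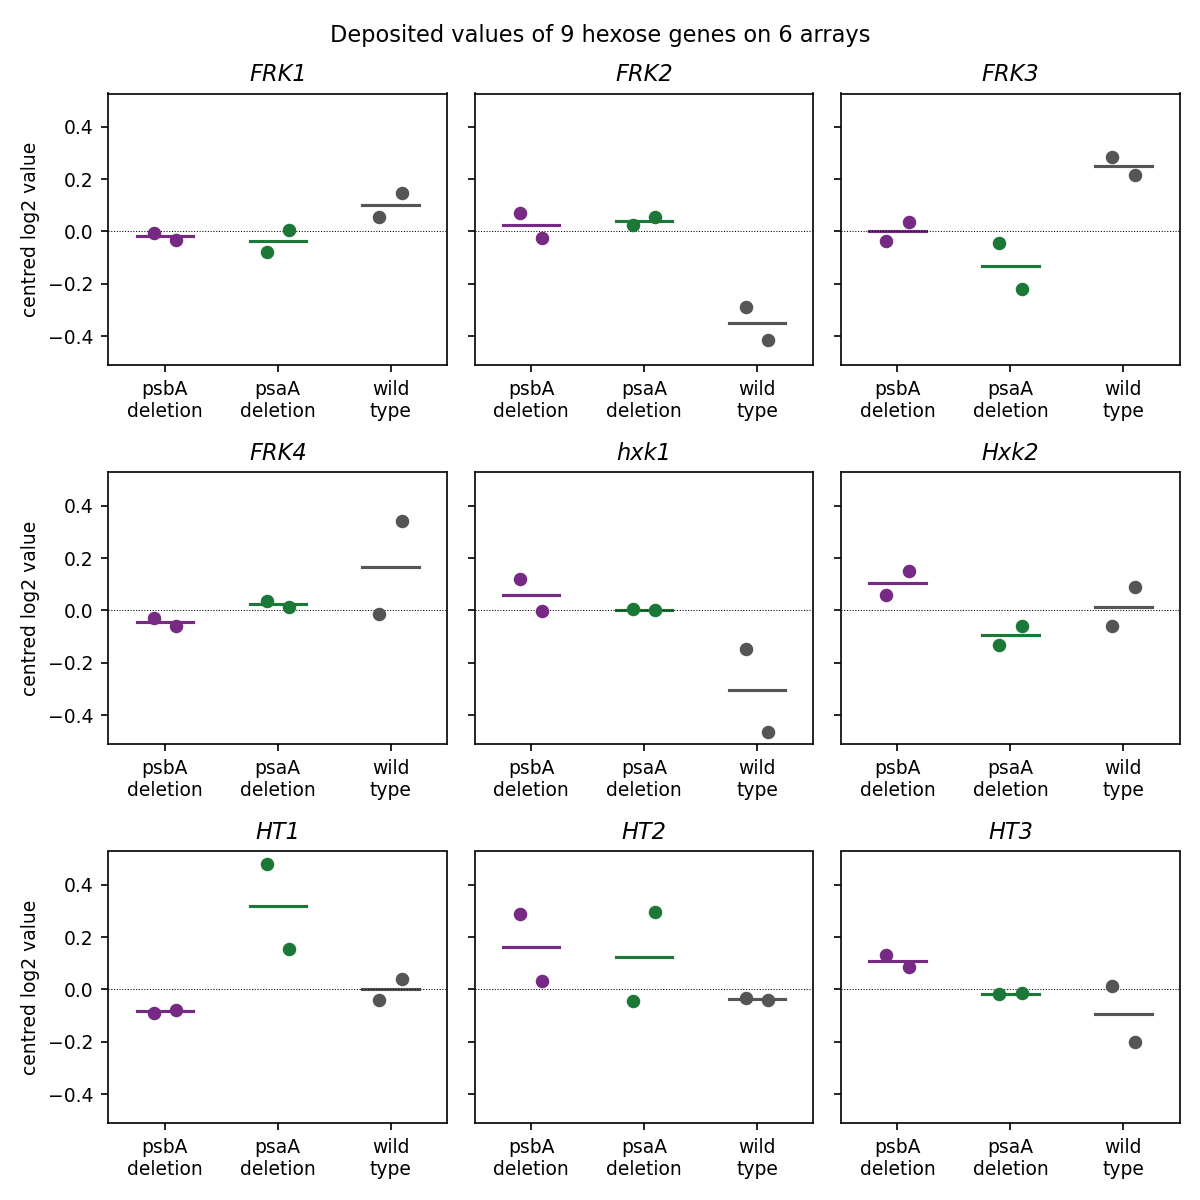
Centred log2 value (vertical axis) of each of the 9 genes on the 6 arrays, with psbA deletion, psaA deletion and wild type from left to right; points are arrays and lines are means of 2. FRK2 and hxk1 lie lower on both wild-type arrays than on all 4 mutant arrays, FRK1 and FRK3 lie higher there, and the other 5 genes show no such order.

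Among the fructokinases, FRK2 came nearest to a call. FRK2 (gene ID 544022) encodes a cytosolic fructokinase that is needed in tomato for normal stem vascular growth. Its values were 0.071 and -0.025 on the psbA arrays and 0.025 and 0.057 on the psaA arrays, against -0.29 and -0.41 on the wild-type arrays. All 4 mutant arrays lay above both wild-type arrays, and the mutants overlapped each other. The log2 difference from wild type was 0.39 in the psaA deletion (SE 0.108, n = 2 per group, 1.31-fold, limma adjusted p = 0.0553) and 0.37 in the psbA deletion (SE 0.108, 1.3-fold, limma adjusted p = 0.0634). The mutants differed from each other by -0.018, psbA minus psaA, with a 95% interval from -0.27 to 0.23. These 2 comparisons with wild type use the same wild-type arrays.

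FRK3 (543890), the fructokinase located in plastids, had the opposite order. It read -0.037 and 0.037 on the psbA arrays and -0.045 and -0.22 on the psaA arrays, against 0.28 and 0.22 in wild type. Both wild-type arrays were the highest, and the psbA arrays lay above the psaA arrays. The differences from wild type were -0.38 in the psaA deletion (SE 0.112, limma adjusted p = 0.0698) and -0.25 in the psbA deletion (SE 0.112, limma adjusted p = 0.216).

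FRK1 (544023), another cytosolic fructokinase, varied least, with a range of 0.23 over the 6 arrays. The psbA arrays gave -0.0039 and -0.031 and the psaA arrays -0.078 and 0.0039, against 0.054 and 0.15 in wild type. Wild type was highest on both arrays, yet the differences were small: -0.14 in the psaA deletion (95% interval from -0.38 to 0.10) and -0.12 in the psbA deletion (from -0.36 to 0.12).

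FRK4 (543844), known in tomato from stamens and pollen, read -0.028 and -0.058 in the psbA deletion and 0.034 and 0.013 in the psaA deletion, against -0.013 and 0.34 in wild type. The wild-type arrays differed from each other by 0.35, more than any difference between group means for this gene. Its difference from wild type was -0.14 in the psaA deletion (SE 0.133) and -0.21 in the psbA deletion (SE 0.133). Without wild-type replicate 2 the psaA value turned to 0.036 and the psbA value became -0.031, and without wild-type replicate 1 they were -0.32 and -0.38.

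The hexokinase gene hxk1 (543779) resembled FRK2 in which arrays were low. Its values were 0.12 and -0.00034 in the psbA deletion and 0.0050 and 0.00034 in the psaA deletion, against -0.15 and -0.46 in wild type. The 4 mutant arrays lay within 0.12 of each other and above both wild-type arrays, which differed from each other by 0.32. The difference from wild type was 0.31 in the psaA deletion (SE 0.130, 1.24-fold, limma adjusted p = 0.196) and 0.36 in the psbA deletion (SE 0.130, 1.29-fold, limma adjusted p = 0.124). Without wild-type replicate 2 these values were 0.15 and 0.21, and without replicate 1 they were 0.47 and 0.52.

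Hxk2 (543638), the other hexokinase gene named on the array, did not share this order. It read 0.057 and 0.15 in the psbA deletion and -0.13 and -0.060 in the psaA deletion, against -0.057 and 0.088 in wild type. The psbA arrays overlapped those of wild type, and the psaA arrays were the lowest of the 6. The mutants differed by 0.20, psbA minus psaA (SE 0.111, limma adjusted p = 0.399), and from wild type by -0.11 in the psaA deletion and 0.089 in the psbA deletion.

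Of the transporters, HT1 (543737) differed most between the mutants. Its values were -0.088 and -0.079 in the psbA deletion and 0.48 and 0.15 in the psaA deletion, against -0.040 and 0.040 in wild type. The psaA arrays were the highest and the psbA arrays the lowest, with wild type between them. The difference between the mutants was -0.40, psbA minus psaA (SE 0.130, 1.32-fold lower in psbA, limma adjusted p = 0.15). Against wild type the psaA deletion gave 0.32 (SE 0.130, limma adjusted p = 0.18) and the psbA deletion -0.083 (SE 0.130, limma adjusted p = 0.759). The psaA arrays differed from each other by 0.32, as much as their mean differed from wild type. Without psaA replicate 1 the difference between the mutants was -0.24 and that of psaA from wild type 0.15, and without psaA replicate 2 they were -0.56 and 0.48.

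HT2 (543728) had uneven replicates in both mutants. It gave 0.29 and 0.032 in the psbA deletion and -0.045 and 0.30 in the psaA deletion, against -0.032 and -0.039 in wild type. The psaA arrays lay on both sides of wild type, and the psbA arrays above it. The differences from wild type were 0.16 in the psaA deletion and 0.20 in the psbA deletion (SE 0.145, the largest SE of the 9 genes). The psaA value was 0.33 without psaA replicate 1 and turned to -0.0097 without replicate 2, and the psbA value was 0.068 without psbA replicate 1 and 0.32 without replicate 2.

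HT3 (543738) gave 0.13 and 0.085 in the psbA deletion and -0.019 and -0.014 in the psaA deletion, against 0.014 and -0.20 in wild type. The psbA arrays were the highest, and the psaA arrays lay between those of wild type. Its difference from wild type was 0.076 in the psaA deletion (SE 0.114) and 0.20 in the psbA deletion (SE 0.114, limma adjusted p = 0.327). Without wild-type replicate 2 the psaA value turned to -0.031 and the psbA value became 0.094, and without wild-type replicate 1 they were 0.18 and 0.31.

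**Figure D2:**
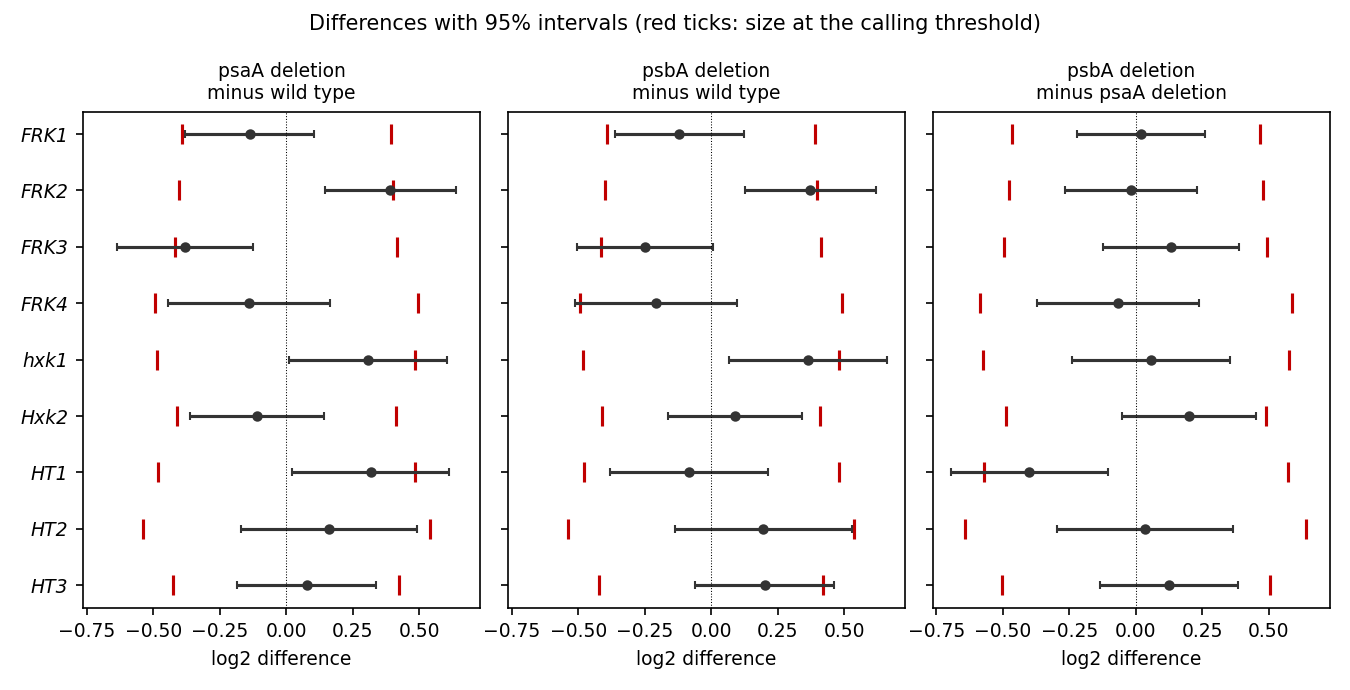
Log2 differences (horizontal axis) of the 9 genes in the 3 comparisons, with 95% intervals from limma, unadjusted for the number of genes; red ticks mark the size at which each gene would have passed the adjusted threshold. No point lies past its ticks, and FRK2 in the psaA deletion is nearest, at 0.39 with a tick at 0.40.

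A missed threshold does not show that values were equal, so the intervals set the limits. At the precision of these arrays a member would have passed from a log2 difference of 0.39 to 0.54 onward in the psaA comparison, or 1.31-fold to 1.45-fold depending on the gene. The corresponding sizes were 0.39 to 0.54 for the psbA comparison and 0.47 to 0.64 for psbA against psaA. The 27 intervals together reached from -0.70 (HT1, psbA minus psaA) to 0.66 (hxk1, psbA deletion against wild type), and the farthest bound corresponds to a 1.62-fold difference. Directions were mixed: in each comparison with wild type 5 of the 9 were above 0 and 4 below, with a median of 0.076 in the psaA and 0.089 in the psbA deletion, beside 0.017 and 0.018 over all probe sets.

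The arrays of the 2 groups did not overlap for 6 of 9 genes in the psaA comparison, where this held for 53.7% of all probe sets. It held for 8 of 9 in the psbA comparison (52.7% of all) and for 5 of 9 between the mutants (47.7% of all). With 2 arrays against 2, an exact permutation test cannot give a two-sided p below 0.333, so it was not used for single genes. When both mutants were pooled against wild type, a comparison chosen after seeing the data, 1 of 9 genes was called, beside 11.7% of all probe sets. This was FRK2, higher by 0.38 (SE 0.0936, limma adjusted p = 0.0322). That call held when psbA replicate 2 was left out (adjusted p = 0.0488) and was lost without psaA replicate 1 (0.0767), psaA replicate 2 (0.087), psbA replicate 1 (0.0728), wild-type replicate 1 (0.0952) or wild-type replicate 2 (0.209). The arrays of wild type and of the pooled mutants did not overlap for 4 of 9 genes, FRK1, FRK2, FRK3 and hxk1, beside 30.8% of all probe sets.

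The scale of the arrays bears on every direction above, since the deposited values assume that the typical probe set is equal on all arrays. The array's 42 poly-A control probe sets were picked by name, and centred values cannot show whether their RNA was added or read above background. Scaling to these poly-A controls shifted the median over the whole array by -0.22 (psaA deletion), -0.44 (psbA deletion) and -0.20 (psbA minus psaA). On that scale FRK3 was called lower in the psaA deletion (-0.61, limma adjusted p = 0.015), 1 of 9 members beside 14.9% of all probe sets. In the psbA deletion 5 of 9 were called lower, FRK1 (-0.58), FRK3 (-0.71), FRK4 (-0.67), Hxk2 (-0.37) and HT1 (-0.54), beside 60.5% of all probe sets, so the members' share lay near that of the array. Hxk2 had been above 0 as deposited. FRK2 and hxk1 turned to -0.087 and -0.096 in the psbA deletion, both above the array's median, and gave 0.16 and 0.073 in the psaA deletion. HT2 and HT3 turned below 0 against wild type in both mutants, and HT1 was called lower in the psbA deletion, relative to the psaA deletion (-0.63, limma adjusted p = 0.0239), 1 of 9 beside 8.06% of all. All 9 genes were below 0 on that scale for psbA minus psaA, where the median over the whole array was itself -0.20. With scaling on hybridisation controls FRK2 passed in the psaA deletion (0.44, limma adjusted p = 0.0368), 1 of 9 beside 11.1% of all probe sets, while 0 of 9 passed in the psbA deletion (10.9% of all) or between the mutants (3.9% of all).

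**Figure D3:**
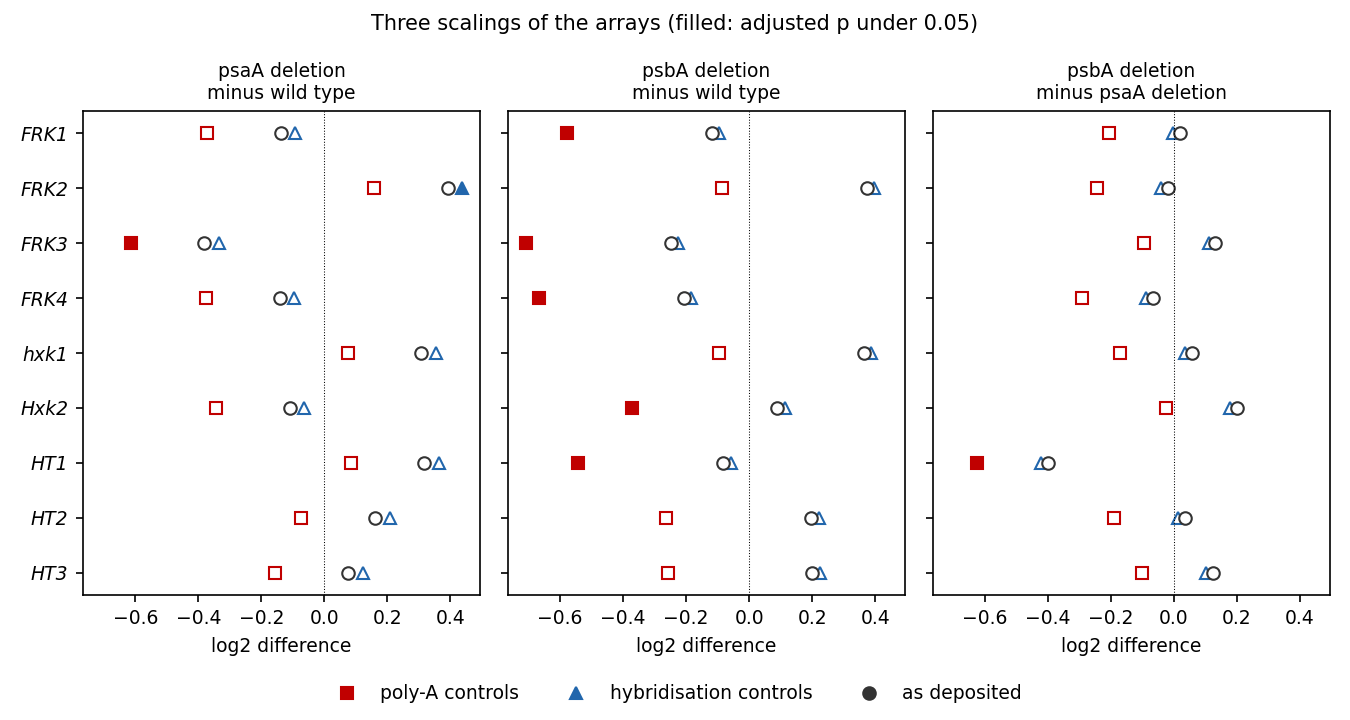
Log2 differences (horizontal axis) of the 9 genes in the 3 comparisons under 3 scalings of the arrays: poly-A controls (red squares), hybridisation controls (blue triangles) and as deposited (black circles); filled symbols passed at an adjusted p under 0.05. No circle is filled, and in the psbA deletion all 9 red squares lie below 0, as does the whole array's median on that scale (-0.44).

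Genes of the steps next to hexose phosphorylation were compared in the same fit. Of 26 symbols sought for sucrose and starch metabolism, 10 were on the array with 11 probe sets. In the psaA deletion 2 of the 11 were lower, beside 10.7% of all probe sets called, 0 were higher and 9 were not called, with a median of -0.14. They were SPS, sucrose-phosphate synthase, at -0.56 (SE 0.143, limma adjusted p = 0.0408) and AGPL3, a large subunit of ADP-glucose pyrophosphorylase of starch synthesis, at -0.78 (SE 0.209, limma adjusted p = 0.0498). SPS read -0.24 and 0.16 on the psbA arrays and -0.16 and -0.27 on the psaA arrays, against 0.34 and 0.35 in wild type. AGPL3 read -0.031 and -0.024 in the psbA deletion and 0.024 and -0.25 in the psaA deletion, against 1.02 and 0.32 in wild type, whose replicates were far apart. For both genes all 4 mutant arrays lay below both wild-type arrays. The SPS call was lost without either psaA array (adjusted p = 0.132 and 0.198) or either wild-type array (0.155 and 0.163), and also with quantile normalization (0.0634) and with the replicate block (0.0582). The AGPL3 call was lost without either psaA array or wild-type replicate 1. The AGPL3 value was -0.43 without wild-type replicate 1 and -1.13 without replicate 2. Its call was also lost with quantile normalization (limma adjusted p = 0.0589), robust eBayes (0.0531) and a fit of the 2 groups alone (0.0861). Leaving out a psbA array repeats that last fit. In the psbA deletion 0 of 11 passed in limma, and 3 had an unadjusted p under 0.05. AGPL3 gave -0.70 there (limma adjusted p = 0.0718) and SPS -0.39 (limma adjusted p = 0.132), and psbA minus psaA they gave 0.084 and 0.17 (limma adjusted p = 0.88 and 0.598). Between the mutants 0 of 11 passed in limma, and 0 had an unadjusted p under 0.05. The cell-wall invertase genes lin5, LIN7, LIN8 and Wiv-1, which release hexoses outside the cell, gave between -0.26 and 0.055 against wild type in both mutants, with no call.

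Of 21 symbols sought for users of hexose phosphates and for malate metabolism, 5 were on the array with 6 probe sets. In the psaA deletion 2 of the 6 rose, in the psbA deletion 1 of 6, and between the mutants 1 of 6 was lower in psbA, beside 10.7%, 11.2% and 3.98% of all probe sets called. TAL, transaldolase of the pentose phosphate pathway, rose in both mutants: by 0.84 in the psaA deletion (SE 0.116, limma adjusted p = 0.00246) and by 0.79 in the psbA deletion (SE 0.116, limma adjusted p = 0.00386). Its arrays read 0.019 and 0.038 in the psbA deletion and 0.18 and -0.019 in the psaA deletion, against -0.82 and -0.70 in wild type, so the mutants lay well above wild type. With poly-A scaling TAL in the psbA deletion gave 0.33 and was not called (adjusted p = 0.0794). ME2, a malic enzyme gene, rose in the psaA deletion (0.90, SE 0.108, limma adjusted p = 0.00122), and in the psbA deletion it gave 0.40 (limma adjusted p = 0.0521). Relative to the psaA deletion, ME2 in the psbA deletion stood at -0.51 on the log2 scale (limma adjusted p = 0.0393). That call ended in a fit of the mutants alone (limma adjusted p = 0.0750), which leaving out a wild-type array repeats. It also ended with the replicate block (0.0699) and without any 1 of the mutant arrays, where a group has 1 array. Over 12 alternatives the value ran from -0.73 to -0.43. The other 4 probe sets, of TPI, mdh and ME1, passed in no comparison.

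Of 7 symbols sought for the SNF1-related kinase complex, which responds to low sugar and energy, 4 were on the array with 1 probe set each. None passed in the psaA deletion in limma, with 0 at an unadjusted p under 0.05. In the psbA deletion 2 rose, beside 11.2% of all probe sets called, and 2 were not called. GAL83, a beta subunit, was higher by 0.62 (SE 0.107, limma adjusted p = 0.00823), and SNF1, the kinase subunit, by 0.45 (SE 0.105, limma adjusted p = 0.0281). GAL83 read 0.35 and 0.49 on the psbA arrays and 0.026 and -0.026 on the psaA arrays, against -0.19 and -0.20 in wild type. SNF1 read 0.30 and 0.37 in the psbA deletion and 0.043 and -0.043 in the psaA deletion, against -0.11 and -0.12 in wild type. For both genes the psaA arrays lay between the other groups. The difference between the mutants did not pass for GAL83 (0.42, limma adjusted p = 0.0711) or SNF1 (0.33, limma adjusted p = 0.136). The GAL83 call was lost without either wild-type array, though its value stayed at 0.62 and 0.61. The SNF1 call was lost in a fit of the 2 groups alone (limma adjusted p = 0.0503), which leaving out a psaA array repeats. It was also lost without any 1 of the psbA or wild-type arrays, where a group has 1 array. With poly-A scaling both calls against wild type ended, GAL83 at 0.16 and SNF1 at -0.0091. SNF4, a gamma subunit, and Sip1 gave -0.10 and -0.41 in the psbA deletion, without a call.

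**Figure D4:**
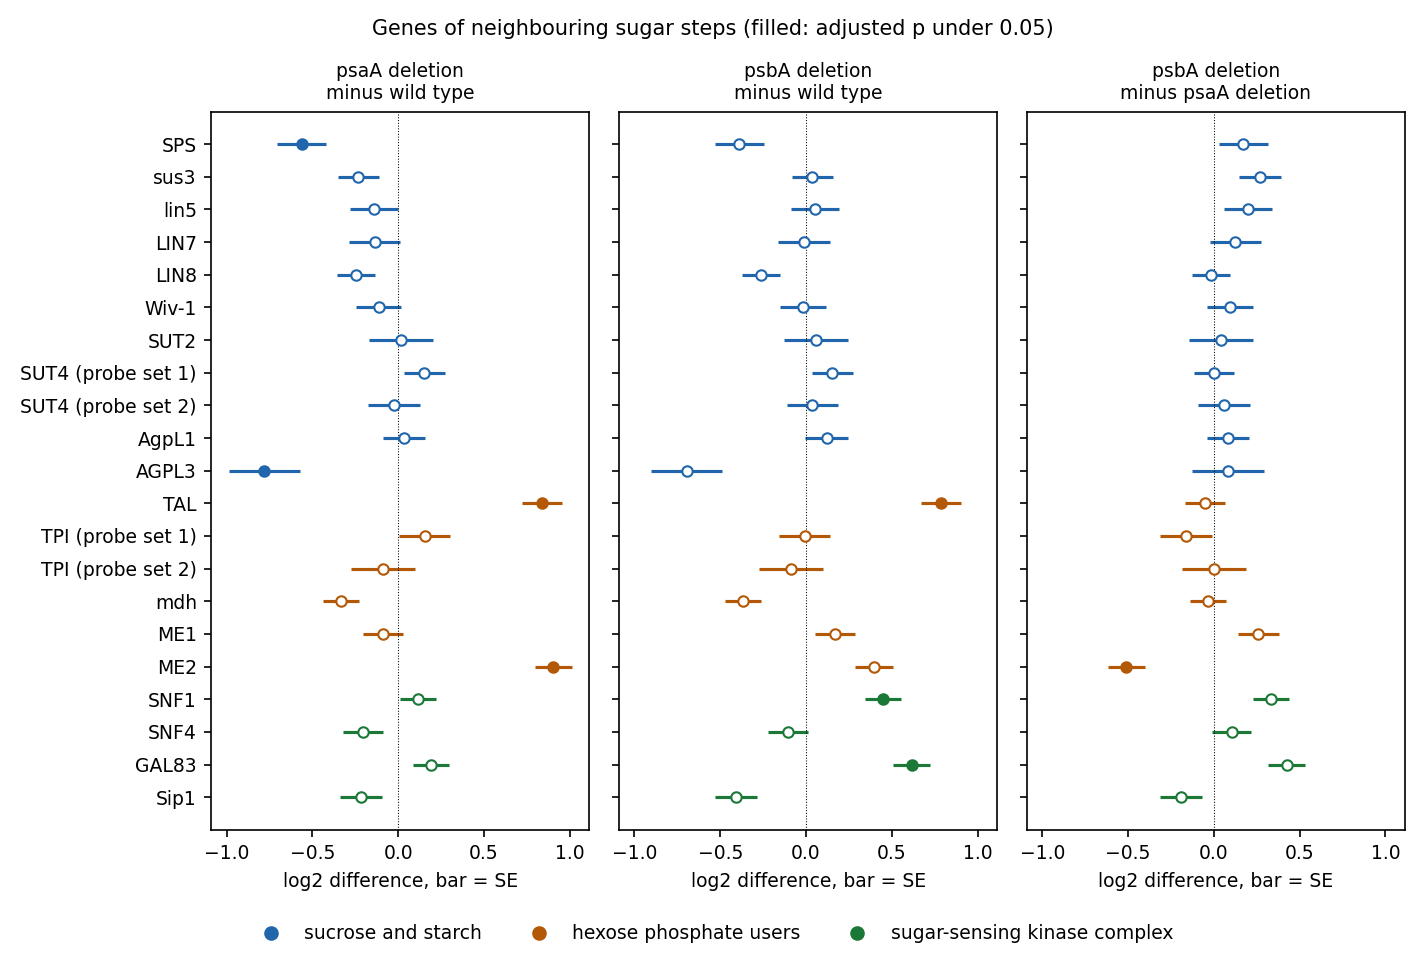
Log2 differences with limma's SE (horizontal axis) in the 3 comparisons. Probe sets are of sucrose and starch (blue), hexose phosphate use and malate metabolism (brown) and the sugar-sensing kinase complex (green). Filled points passed at an adjusted p under 0.05. The filled points are SPS, AGPL3, TAL and ME2 in the psaA deletion, TAL, SNF1 and GAL83 in the psbA deletion, and ME2 between the mutants.

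Leaf tissue markers moved with genotype on the same arrays. All 6 leaf mesophyll markers, genes of the light-harvesting antenna, oxygen-evolving complex and plastocyanin, were lower in the psaA deletion (median -0.97). In the psbA deletion 5 of 6 were lower (median -0.70). Over all probe sets 10.7% were called in the psaA and 11.2% in the psbA deletion. Of 5 root markers 0 were called in limma in the psaA deletion. There 2 had an unadjusted p under 0.05, beside 23.8% of all probe sets. In the psbA deletion 1 root marker was higher and 1 lower, beside the 11.2% of all called. Between the mutants 1 of the 5 root markers, the phosphate transporter gene PT1, was lower in psbA (-0.61, limma adjusted p = 0.0493), beside 3.98% of all probe sets called. The mesophyll markers had a median of 0.29 there, with 0 of 6 called in limma. Of these, 4 had an unadjusted p under 0.05, beside 17.8% of all probe sets. The single probe sets for epidermis and for pollen and stamen and the 2 for meristem passed in neither mutant in limma. In the psaA deletion 1 meristem probe set had an unadjusted p under 0.05, beside the 23.8% of all. The 3' minus 5' differences of 6 control transcripts, a sign of RNA quality, were compared between group means. They were not tested against the spread between arrays. Between the mutants they differed, psbA minus psaA, by -0.40 for actin, -0.36 for gapdh and -0.40 for ef1a, and by 0.019 for ubiquitin, 0.15 for GlutTrans and 0.097 for PhyB2. Against wild type the psaA deletion gave 0.27, 0.28, 0.31 and 0.30 for actin, gapdh, ef1a and ubiquitin, and -0.12 and -0.13 for GlutTrans and PhyB2. The psbA deletion gave -0.13, -0.082, -0.089 and 0.32 for those first 4, and 0.021 and -0.031 for GlutTrans and PhyB2. The part of these markers and controls in the values of the hexose genes, HT1 between the mutants among them, and in that of ME2 was not tested. In whole leaves, fewer cells of a type and less RNA per cell cannot be told apart.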

How the data were processed

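Leaf RNA was hybridised to 6 Affymetrix tomato arrays. Per the submitters' processing notes the authors used RMA and GCRMA, without saying which made the deposited log2 values; neither the version nor the base of the logarithm is given in the sources used here, and base 2, which both methods use, was assumed. Medians over the arrays were 0 within 1e-06 for all 10209 probe sets, so filters on dim probes were not possible. After removal of 108 Affymetrix controls, 10101 probe sets were fitted in limma 3.58.1 (R 4.3.3) over all 6 arrays, with 3 residual and 5.39 prior degrees of freedom, and two-sided p-values were adjusted over all of them (Benjamini-Hochberg). Precision is limited by 2 arrays per group (median SE 0.125). Gene symbols, present for 909 probe sets, are those of the platform annotation dated 2007. The tobacco gene table holds 0 of the 9 member IDs, so positions and sequences are not used here. The members and lists were chosen with earlier results of these data known. Named were all members and the genes that passed from the sucrose and starch, hexose phosphate and kinase complex lists. Of the tissue markers, not all that passed were named. Also to be named were the 2 genes nearest in pattern to each member that passed, of which there were 0. Alternatives were a replicate block, control scaling, quantile normalization, robust eBayes, fits of 2 groups, means per gene and leaving out arrays. Plots used matplotlib 3.10.9.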

Additional observations from a re-analysis of the deposited data

Results flagged for a closer look

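The malic enzyme gene ME2 differed between the mutants' effects by the test of the difference itself, at -0.51 for psbA minus psaA on the log2 scale (limma adjusted p = 0.0393). It read -0.076 and 0.076 in the psbA deletion, against 0.52 and 0.50 in the psaA deletion, and -0.37 and -0.42 in wild type. Of 12 alternatives the call held in 4. The alternatives are not all separate, since leaving out a wild-type array repeats the fit of the mutants alone. None of the 9 hexose kinase and transporter genes differed in this test in limma, with 1 (HT1) at an unadjusted p under 0.05. Groups of 2 arrays are too small for the search for single outlying arrays.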

How the results depend on the processing

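The count of hexose genes called stayed at 0 in all 3 comparisons and in the test over 3 genotypes with the replicate block, quantile normalization and robust eBayes. In the 3 comparisons it also stayed at 0 with fits of 2 groups. Means per gene gave 0 too, but each member has 1 probe set, so the members' differences could not change. The count moved with poly-A scaling to 1 (psaA against wild type), 5 (psbA against wild type), 1 (psbA against psaA) and 4 (3 genotypes). With hybridisation scaling it moved to 1 (psaA against wild type) and 1 (3 genotypes). With the mutants pooled, an alternative chosen after seeing the data, it moved to 1. By construction these scalings move all genes of an array together. With poly-A scaling Hxk2 in the psbA deletion went from 0.089, not called, to -0.37, above the array's median of -0.44. SNF1 there came to -0.0091 and was not called. Of 162 member values with an array left out, 8 changed sign, and 14 of 189 did so under the other alternatives. Among these 14 only Hxk2 in the psbA deletion was called. Many of the values could not change sign. Leaving out an array of the group not compared keeps a difference as it was. So do the replicate block, robust eBayes, fits of 2 groups and means per gene. Over all probe sets, poly-A scaling gave 6110 calls (psbA against wild type, against 1128), 814 (between the mutants, against 402) and 4964 (3 genotypes, against 1389), and the fit of the mutants alone gave 266. With poly-A scaling 9.23%, 1.67% and 7.49% of calls were higher in the 3 comparisons, against 43.5%, 48.4% and 44.8% as deposited, and 52.2%, 53.7% and 38.6% with hybridisation scaling. With arrays left out the counts ran from 494 to 994 (psaA against wild type), 509 to 842 (psbA against wild type), 115 to 266 (between the mutants) and 763 to 1056 (3 genotypes). The cause was not tested beyond fewer arrays in these fits. Arrays with the same replicate number share only that number: their deviations correlated between -0.0086 and 0.021. With the replicate block 0 hexose genes were called, and over all probe sets 916 (psaA against wild type), 965 (psbA against wild type) and 301 (between the mutants). It ended the SPS call (adjusted p = 0.0582) and the call of ME2 between the mutants (adjusted p = 0.0699). Signal over background could not be read from centred values.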
